A study of Homo sapiens with 8 samples.

Results

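Accessibility was described at 10 genes: the actins ACTB, ACTG1, ACTA2, ACTC1 and ACTG2, the contractile genes TAGLN, CNN1, MYL9 and TPM1, and SRF, which encodes serum response factor. The group was chosen by the measured accessibility of ACTB, often used as a reference gene, which was higher in paclitaxel-resistant than in control cells of this series. Its members were all consensus peaks of open chromatin that overlapped the RefSeq span of one of the genes on hg38, extended by 1 kb on both sides. This took 56 of 159451 peaks, each 1001 bp long. TPM1 held 14 peaks, ACTA2 and TAGLN 8 each, CNN1 and SRF 6 each, MYL9 5, ACTB and ACTG1 4 each, ACTG2 1 and ACTC1 0. All 56 peaks reached 1 CPM (reads per peak, scaled to a common total per library) in at least 2 libraries and were tested. At 0 of them were these libraries all of 1 group. At chr15:63051477-63052477, chr15:63057758-63058758 and chr15:63068487-63069487 in TPM1, only 1 library outside the cisplatin-resistant group reached 1 CPM. At chr10:88948486-88949486 in ACTA2, only 1 outside the paclitaxel-resistant group did. These peaks would have failed the filter without the group where they were highest, which favours a rise there.

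The series profiled the human ovarian cancer cell line A2780 by ATAC-seq, a method that tags accessible DNA with adapters carried by the transposase Tn5. There were 4 groups with 2 libraries each. The labels give genotype WT for all 8 libraries and the treatments NA (control here), Cisplatin, Paclitaxel and Cisplatin/Paclitaxel, and the titles mark the treated cells as resistant. The last group is called dual-resistant. Cisplatin damages DNA by forming adducts, and paclitaxel stabilises microtubules. The sources used here do not give whether drug was present at collection or whether a resistant line is 1 clone or a pool. The labels do not state separate cultures for the libraries of a group, so p-values measure only the spread between these libraries, which may be technical.

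SRF binds DNA at the CArG box, a short element with a pair of C, a run of A and T and a pair of G. It acts with partner proteins. The myocardin-related factors MRTFA and MRTFB are held in the cytoplasm by monomeric actin and enter the nucleus when actin polymerises. The ternary complex factors, such as ELK1 and ELK4, link SRF to growth factor signalling instead. Targets of the MRTF branch include SRF itself, the actins and proteins that cap, bundle or cross-link actin filaments, so the pathway responds to the state of the cytoskeleton. In carcinoma cells the cytoplasmic actins are made constantly, whereas the smooth muscle genes ACTA2, TAGLN and CNN1 are better known from contractile cells and activated fibroblasts.

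The stretches before 4 start sites are shown because they hold the CArG boxes of genes described here or lie in a peak that differed between groups. They are the 250 bases before the start in RefSeq (build GRCh38.p14), on the strand of the gene and 5′ to 3′, with exact CArG boxes in capitals. The SRF stretch lies at chr6:43171019-43171268 on the plus strand, inside the peak at its start. The ACTG1 stretch lies at chr17:81512800-81513049 on the minus strand, between peaks. The ACTG2 stretch lies at chr2:73892758-73893007 on the plus strand, where no consensus peak lies. The ACTA2 stretch lies at chr10:88952774-88953023 on the minus strand, before the internal of its 2 listed start sites and inside a peak.
SRF: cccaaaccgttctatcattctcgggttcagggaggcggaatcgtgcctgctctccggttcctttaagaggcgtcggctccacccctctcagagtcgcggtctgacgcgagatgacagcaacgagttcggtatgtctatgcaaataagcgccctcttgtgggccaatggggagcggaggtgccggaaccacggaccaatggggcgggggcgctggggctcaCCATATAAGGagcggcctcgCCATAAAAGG
ACTG1: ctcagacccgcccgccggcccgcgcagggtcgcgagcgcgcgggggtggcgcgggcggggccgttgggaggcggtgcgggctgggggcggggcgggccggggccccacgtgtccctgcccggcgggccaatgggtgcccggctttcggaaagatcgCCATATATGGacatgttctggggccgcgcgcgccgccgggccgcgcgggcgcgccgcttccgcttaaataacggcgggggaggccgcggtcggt
ACTG2: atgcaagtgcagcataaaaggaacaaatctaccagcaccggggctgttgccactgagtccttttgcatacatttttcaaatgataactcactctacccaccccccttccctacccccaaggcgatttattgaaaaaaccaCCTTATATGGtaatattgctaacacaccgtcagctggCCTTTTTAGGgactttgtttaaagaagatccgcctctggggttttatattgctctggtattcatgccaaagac
ACTA2: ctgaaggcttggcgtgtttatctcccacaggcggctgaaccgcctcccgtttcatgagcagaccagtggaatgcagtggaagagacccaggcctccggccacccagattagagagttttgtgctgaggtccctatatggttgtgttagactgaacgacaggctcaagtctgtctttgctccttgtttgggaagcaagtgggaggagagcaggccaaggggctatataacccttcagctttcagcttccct
SRF carried 2 CArG boxes, whose first bases lay 30 and 10 bases before the start. ACTG2 also carried 2, at 110 and 73 bases before the start, ACTG1 carried 1 at 94 bases, and ACTC1, which encodes cardiac actin, carried 1 at 109 bases before the first of its starts. No exact box was found before either start of ACTA2, nor at TPM1 or CNN1. An exact CArG box stood in 1.29% of the 35116 RefSeq promoters of the same length (250 bases before to 50 bases after the start, both strands searched). The other motifs searched were TATAAA (in 11.5% of promoters), CCAAT (34.6%), GGGCGG (45.0%), GGAATG (14.0%) and TGANTCA (7.71%). In this window CCAAT was found at SRF, ACTG1 and CNN1, and TATAAA at SRF, ACTG2 and ACTC1. GGGCGG was found at SRF, ACTG1, CNN1 and TPM1, before the outer start of ACTA2 and at 2 starts of ACTC1, and GGAATG before the internal start of ACTA2 and at 1 start of ACTC1. The search for TGANTCA matched none of the 7 members listed. These are matches of letters, and a missing match says only that the letters are not in the window. ACTB, TAGLN and MYL9 were not among the genes with a listed promoter.

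The libraries held 7693492 to 9304798 reads in peaks, which made 1 read worth 0.107 to 0.130 CPM. A count of 0 could hide 3 reads, or 0.322 to 0.390 CPM, for counting error only. Across peaks, 2 libraries of 1 group correlated at 0.926 to 0.933. Of 9 ovarian carcinoma markers, 8 had a peak at their start and MUC16 had none. Their summed level was 32.2 to 48.2 CPM per library, with EPCAM the strongest. Of 5 smooth muscle markers outside the group, 4 had a peak, MYOCD had none, and their summed level was 44.4 to 55.5 CPM. Of 7 fibroblast markers, 6 had a peak and FAP had none. Their summed level was 33.1 to 35.9 CPM (control), 69.1 to 73.5 (cisplatin-resistant), 72.1 to 74.1 (paclitaxel-resistant) and 48.0 to 51.0 (dual-resistant). Of 4 endothelial markers only KDR had a peak. In bulk libraries, more cells with an open site and a more open site in each cell cannot be told apart, and CPM scaling hides a change shared by all peaks.

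The 3 comparisons between groups other than the paclitaxel-resistant one were tested with limma. The fit took its spread from all 4 groups, paclitaxel-resistant libraries included. A peak was called at an adjusted p under 0.05 over all 158698 tested peaks. In cisplatin-resistant cells 19 of the 56 member peaks rose against control and 1 fell, where 18.3% of all tested peaks rose and 14.9% fell. Of the 19 peaks, 10 lay in TPM1, 4 in ACTG1, 2 in ACTB, 2 in ACTA2 and 1 at SRF. The median log2 difference over the members was 0.29, against -0.09 over all tested peaks. In dual-resistant cells 11 member peaks rose against control and 2 fell, where 8.11% of all peaks rose and 5.39% fell, and the medians were 0.22 for the members and 0.08 for all. This count of 11 fell to 6 without control library 1, to 7 without dual-resistant library 1 and to 6 without dual-resistant library 2, and the count of 2 fell to 0 without either control library and to 1 without any 1 cisplatin- or dual-resistant library. After subtraction of the regional median (the median difference of tested peaks in the same 5 Mb) the split was 7 higher and 3 lower. These comparisons share the control libraries, which were also part of the comparison by which ACTB was noticed.

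Dual-resistant against cisplatin-resistant cells is the comparison whose log2 differences used no library by which the group was chosen. Its SE and calls are not free of them, since control and paclitaxel-resistant libraries entered the shared spread. In this comparison 9 member peaks were higher and 14 lower in dual-resistant cells, where 21.9% of all tested peaks were higher and 19.9% lower. The member median was -0.10 and the median of all peaks 0.16. Of the 14 lower peaks, 7 lay in TPM1, 3 in ACTG1, 2 in ACTB, 1 in MYL9 and 1 in SRF, and of the 9 higher peaks 4 lay in TAGLN, 2 in ACTA2, 2 in MYL9 and 1 in CNN1. Median-ratio scaling moved the median of all peaks from 0.16 to -0.0029 and the member split to 4 higher and 19 lower, regional subtraction gave 3 and 14, and edgeR on the recovered reads gave 5 and 18. The 9 higher peaks became 5 without cisplatin-resistant library 1, 5 without dual-resistant library 1 and 4 without dual-resistant library 2, and the 14 lower peaks became 9 without either cisplatin-resistant library.

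For paclitaxel-resistant against control cells no test is given, since this comparison chose the group. Both libraries of 1 group lay above both of the other, with a difference of at least 2-fold on the log2(CPM + 0.5) scale, at 7 member peaks with the higher level in paclitaxel-resistant cells and at 3 with the lower. The same held for 5.76% and 8.24% of all tested peaks. The 7 peaks lay in ACTA2 (4), ACTB (2) and SRF (1), and the 3 in MYL9 (2) and TPM1 (1). The count of 7 became 11 without paclitaxel-resistant library 2 and 12 with median-ratio scaling, and the count of 3 became 5 without control library 1. With a pseudocount of 2 CPM the counts were 4 and 0.

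**Figure D1:**
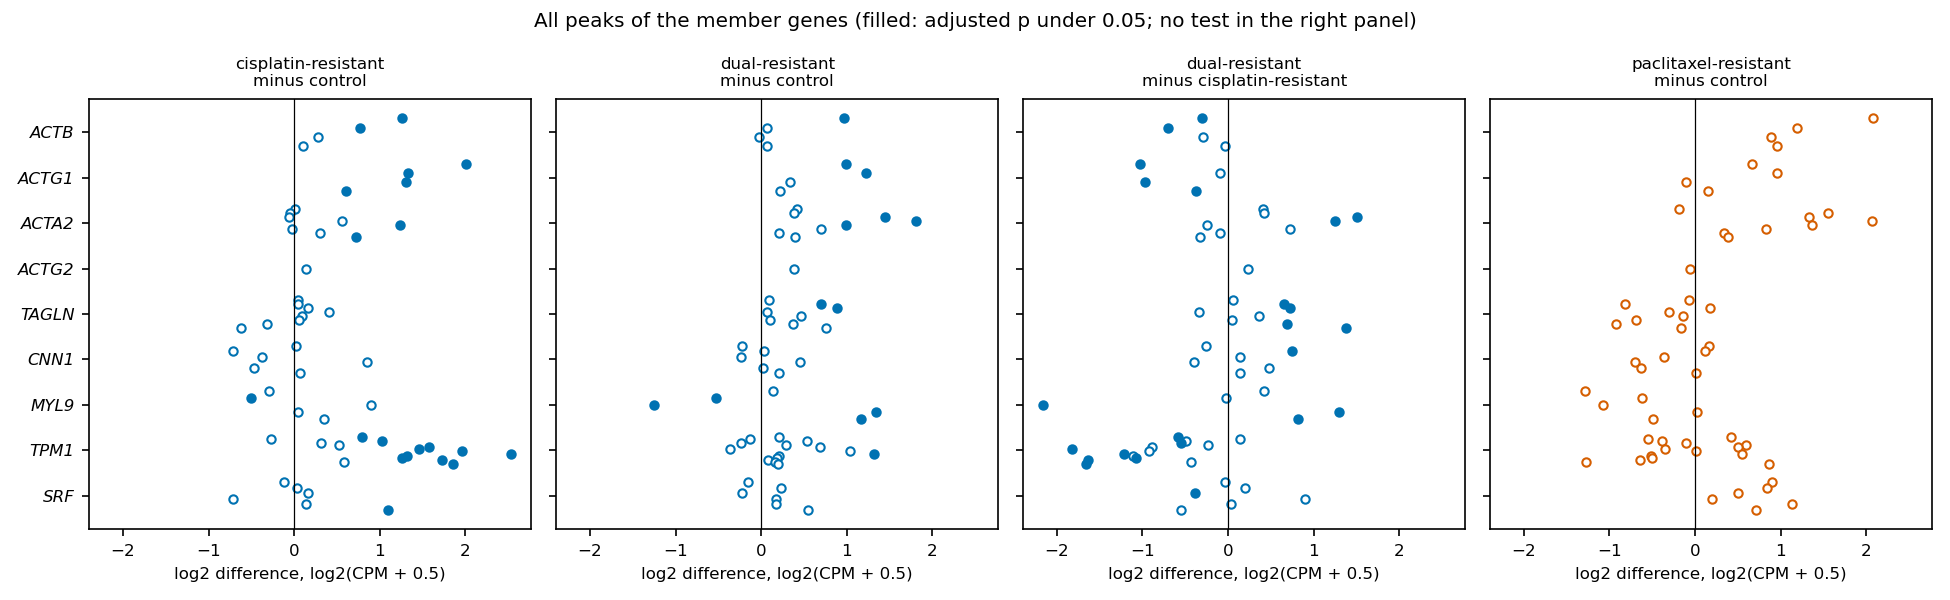
Log2 difference of every member peak (x axis, log2(CPM + 0.5) scale) by gene (y axis) in each of 4 comparisons, where a filled point passed limma at an adjusted p under 0.05 and the right panel carries no test. TPM1 and ACTG1 peaks lie to the right in cisplatin-resistant minus control, with the largest at 2.54, and to the left in dual-resistant minus cisplatin-resistant, whereas TAGLN peaks lie mostly to the right there.

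Each gene was represented by the peak with the highest mean within 1 kb of a listed start site, or of either end of the span for ACTB, TAGLN and MYL9. All peaks have the same length, so their levels can be set side by side. The mean over the 8 libraries was 88.6 CPM at SRF, 43.2 at ACTB, 26.5 at ACTG1, 26.4 at TPM1, 19.8 at MYL9, 19.4 at ACTA2, 11.1 at TAGLN and 5.68 at CNN1. This order held over groups that differ: in control libraries alone the mean of ACTB was 17.9 CPM, below MYL9 (26.1), TPM1 (26.1) and ACTG1 (22.0). The libraries of SRF lay between 67.0 and 147 CPM. ACTG1 and TPM1 were not separate in this order, with libraries from 21.1 to 37.4 CPM and from 21.1 to 38.4 CPM, and MYL9 and ACTA2 overlapped as well. ACTG2 and ACTC1 had no peak within 1 kb of a start.

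**Figure D2:**
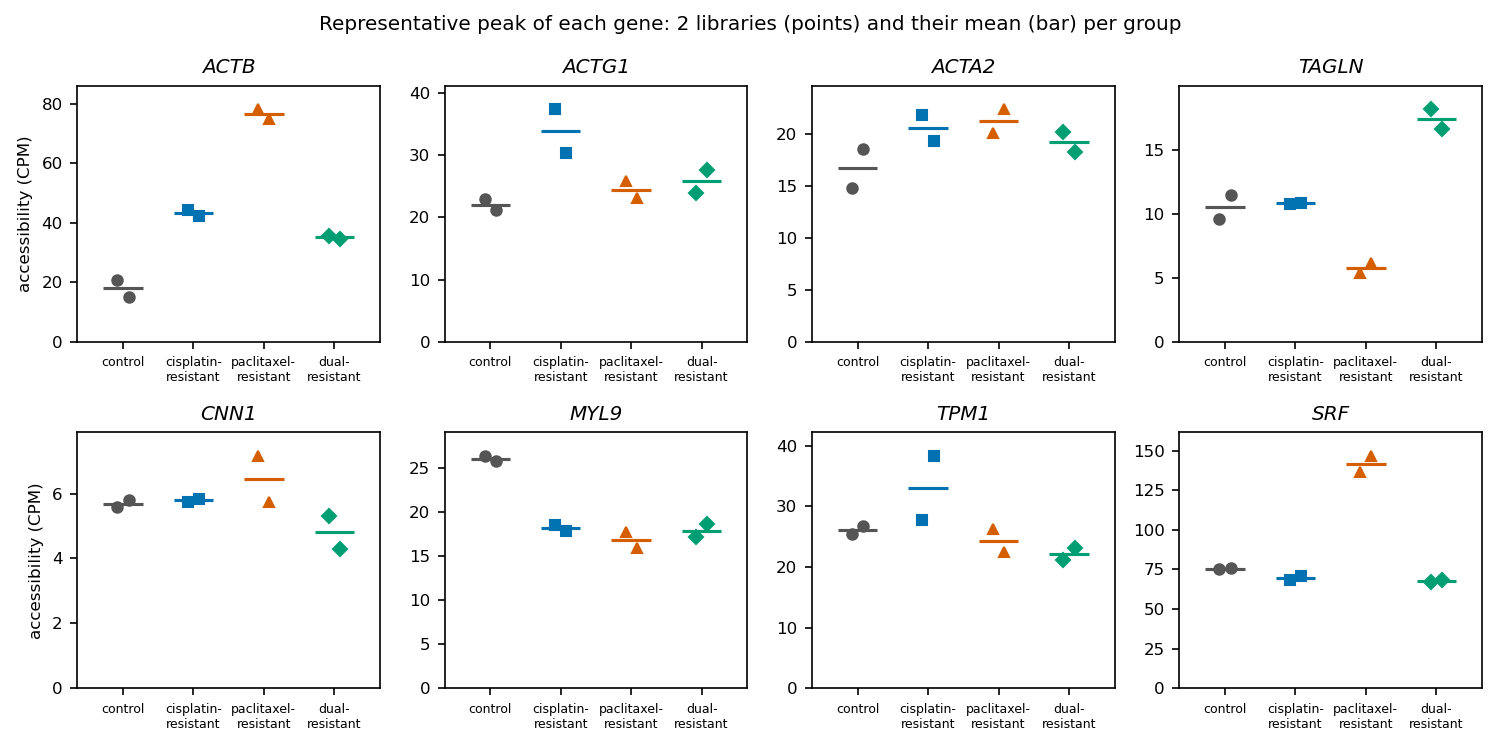
Level of the representative peak of 8 genes in CPM (y axis, from 0) in the 4 groups (x axis), with 1 point per library and a bar at the mean of the 2 libraries. Paclitaxel-resistant libraries stand highest at ACTB and SRF and lowest at TAGLN, cisplatin-resistant libraries highest at ACTG1, dual-resistant libraries highest at TAGLN and control libraries highest at MYL9.

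SRF is the transcription factor of the group and one of its own targets. The peak over its start, at chr6:43170468-43171468 and including the printed stretch with 2 CArG boxes, had 75.0 and 75.8 CPM (control), 68.4 and 71.0 (cisplatin-resistant), 136 and 147 (paclitaxel-resistant) and 67.0 and 68.6 (dual-resistant, libraries 1 and 2 of each). The paclitaxel-resistant libraries stood apart from the other 6, which lay within 67.0 to 75.8 CPM. The log2 difference was -0.11 (SE 0.08) for cisplatin-resistant and -0.15 (SE 0.08) for dual-resistant against control, and -0.04 (SE 0.08) between these resistant lines, with limma adjusted p of 0.309, 0.241 and 0.728. For paclitaxel-resistant against control cells it was 0.90, or 0.39 after subtraction of the regional median of 0.51 over 567 peaks. Each of the 3 tested differences changed sign under 1 scaling or centring, to at most 0.055. Lower levels in dual-resistant cells were called under median-ratio scaling (-0.23 against control and -0.23 against cisplatin-resistant cells) and with edgeR on recovered reads (-0.25 and -0.21), and the latter also after regional subtraction (-0.25).

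Paclitaxel-resistant libraries stood above the other 6 at 4 of the 6 SRF peaks, a pattern seen at 8.86% of all tested peaks. The rise was not confined to the gene. At the 5 peaks from 1 to 15 kb upstream of its span, paclitaxel-resistant cells were above control by 0.45 to 0.98 (median 0.91). At the 2 such peaks downstream the differences were 0.06 and 0.25. At chr6:43174058-43175058, within the gene, the levels were 37.4 and 39.6 CPM (control), 43.3 and 43.1 (cisplatin-resistant), 60.9 and 48.9 (paclitaxel-resistant) and 36.4 and 29.8 (dual-resistant). This peak was lower in dual-resistant than in cisplatin-resistant cells by -0.39 (SE 0.11, limma adjusted p = 0.00362), which was lost without dual-resistant library 2. A weak peak beyond the end of the gene, at chr6:43181569-43182569, rose in cisplatin-resistant cells, from 1.69 and 2.96 CPM to 4.16 and 6.90 CPM (log2 difference 1.09, SE 0.33, limma adjusted p = 0.00556). That call was lost without control library 1 or cisplatin-resistant library 2. SRF therefore had a called change at 1 of 6 peaks in cisplatin-resistant cells and at 0 of 6 in dual-resistant cells against control. Over all tested peaks 18.3% rose and 14.9% fell in the first comparison, and 8.11% and 5.39% in the other.

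ACTB encodes beta-actin and ACTG1 gamma-actin, the cytoplasmic actins of nearly every cell. ACTB lies on the minus strand at chr7:5527148-5530601, so its start is at the higher coordinate. The strand is background knowledge. Its representative peak, at chr7:5525489-5526489, lay beyond the downstream end of the gene. Levels there were 20.8 and 15.1 CPM (control), 44.5 and 42.2 (cisplatin-resistant), 78.2 and 75.0 (paclitaxel-resistant) and 35.7 and 34.5 (dual-resistant). No group overlapped another, and the groups stood in the order control, dual-resistant, cisplatin-resistant, paclitaxel-resistant. The mean was 76.6 ± 2.28 CPM in paclitaxel-resistant and 17.9 ± 4.06 in control libraries (SD, n = 2), a log2 difference of 2.08, which is the observation that chose the gene. The regional median difference over 485 peaks was 0.45, and the difference was 1.63 after it was subtracted.

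The same ACTB peak rose in both resistant lines for which a test is given. The log2 difference was 1.27 (SE 0.12) in cisplatin-resistant and 0.97 (SE 0.12) in dual-resistant cells, with limma adjusted p of 4.95e-16 and 9.1e-11. Both calls held under all 17 alternatives. The level was lower in dual-resistant than in cisplatin-resistant cells by -0.30 (SE 0.12, limma adjusted p = 0.0345), a call lost when any 1 library of the 3 resistant lines was left out and after regional subtraction. The peak was picked by its mean over all 8 libraries, which favours a rise against control. In control libraries its mean of 17.9 CPM was below the 19.0 CPM at chr7:5528991-5529991.

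The peak over the start of ACTB, at chr7:5530172-5531172, gave another picture. It had 20.5 and 14.7 CPM (control), 18.9 and 18.5 (cisplatin-resistant), 36.4 and 32.3 (paclitaxel-resistant) and 14.5 and 23.1 (dual-resistant). Here the paclitaxel-resistant libraries stood apart and the other groups overlapped. The log2 difference against control was 0.10 (SE 0.16) in cisplatin-resistant cells and 0.07 (SE 0.16) in dual-resistant cells, neither called, and 0.96 in paclitaxel-resistant cells. Of the peaks between, chr7:5527548-5528548 near the downstream end had 16.1 and 10.6 CPM (control), 21.6 and 23.6 (cisplatin-resistant), 31.8 and 29.2 (paclitaxel-resistant) and 15.1 and 12.5 (dual-resistant). It rose in cisplatin-resistant cells by 0.77 (SE 0.16, limma adjusted p = 6.22e-05) and was lower in dual-resistant than in cisplatin-resistant cells by -0.70 (SE 0.16, adjusted p = 0.000208). The peak chr7:5528991-5529991 nearer the start was called in none of the tested comparisons with the values as deposited. It was called higher in cisplatin-resistant cells under quantile (0.41) and median-ratio scaling (0.39) and without control library 1 (0.56), and lower in dual- than in cisplatin-resistant cells under quantile (-0.35) and median-ratio scaling (-0.49) and with edgeR (-0.48). Paclitaxel-resistant libraries stood above all others at 4 of 4 ACTB peaks, a pattern at 8.86% of all tested peaks and one that the choice of the gene favours.

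ACTG1 rose in cisplatin-resistant cells at 4 of its 4 peaks, against 18.3% of all tested peaks. The largest rise was at chr17:81508501-81509501, beyond the downstream end of this minus-strand gene. Levels were 10.01 and 7.34 CPM (control), 34.9 and 37.4 (cisplatin-resistant), 13.1 and 14.7 (paclitaxel-resistant) and 16.6 and 18.5 (dual-resistant). Cisplatin-resistant libraries were highest and control libraries lowest, with no overlap between any groups. The log2 difference against control was 2.01 (SE 0.17, limma adjusted p = 5.93e-19) in cisplatin-resistant and 0.99 (SE 0.17, adjusted p = 1.67e-06) in dual-resistant cells, and the dual-resistant line was lower than the cisplatin-resistant line by -1.02 (SE 0.17, adjusted p = 2.2e-07). All 3 calls held under 17 alternatives each. In paclitaxel-resistant against control cells the difference was 0.67.

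The ACTG1 start peak, at chr17:81513197-81514197 and upstream of the printed stretch, had 22.9 and 21.1 CPM (control), 37.4 and 30.3 (cisplatin-resistant), 25.9 and 23.0 (paclitaxel-resistant) and 24.0 and 27.6 (dual-resistant). Cisplatin-resistant libraries were the highest, control libraries the lowest, and the other groups overlapped. Its rise there was 0.60 (SE 0.14, limma adjusted p = 0.000216), smaller than at the downstream end, and no change was called in dual-resistant cells against control (0.22, SE 0.14). The dual-resistant line was lower than the cisplatin-resistant line by -0.38 (SE 0.14, adjusted p = 0.0193), a call lost without cisplatin-resistant library 1 or dual-resistant library 1. Within the gene, chr17:81510991-81511991 rose from 9.23 and 6.31 CPM in control to 17.7 and 22.0 CPM in cisplatin-resistant libraries (1.31, SE 0.21), and dual-resistant libraries, at 9.40 and 10.2 CPM, were lower than these by -0.97 (SE 0.21). At chr17:81509902-81510902 the levels were 3.90 and 2.96 CPM (control), 10.2 and 8.42 (cisplatin-resistant), 8.50 and 5.84 (paclitaxel-resistant) and 8.41 and 8.92 (dual-resistant), and both tested lines rose, by 1.33 and 1.23 (SE 0.25 each). Thus control libraries were the lowest of all 8 at 3 of 4 ACTG1 peaks, against 4.07% of all tested peaks, and cisplatin-resistant libraries the highest at 3 of 4, against 20.7%.

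**Figure D3:**
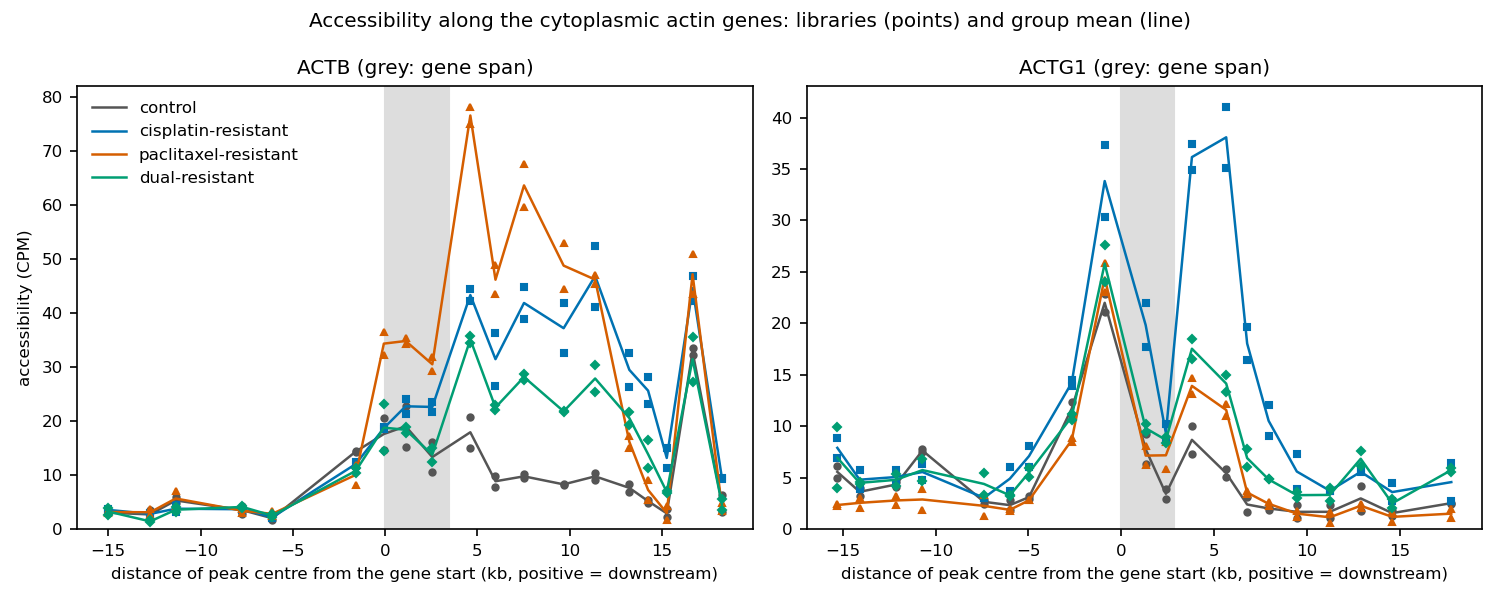
Accessibility in CPM (y axis) of the peaks along ACTB (left) and ACTG1 (right) and up to 15 kb outside them by distance of the peak centre from the gene start in kb (x axis, positive downstream), with points for libraries, lines for group means and the gene span in grey. In CPM, the group means lie closer together at the peak nearest the start of each gene than at the first peak beyond its downstream end, where paclitaxel-resistant cells are highest near ACTB (76.6 CPM) and cisplatin-resistant cells highest near ACTG1.

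ACTA2 encodes smooth muscle alpha-actin, a marker of contractile cells and myofibroblasts. Its span overlaps FAS, ACTA2-AS1 and FAS-AS1, and the file gives no strand, so peaks near its outer start cannot be assigned to 1 gene. The representative peak there, at chr10:88990099-88991099, had 14.8 and 18.5 CPM (control), 21.8 and 19.3 (cisplatin-resistant), 20.0 and 22.4 (paclitaxel-resistant) and 20.2 and 18.3 (dual-resistant). Control libraries lay below both cisplatin- and paclitaxel-resistant libraries and overlapped the dual-resistant ones, and no tested comparison was called with the values as deposited. Quantile and median-ratio scaling each called a rise of 0.41 in cisplatin-resistant cells. The adjoining peak chr10:88991280-88992280 rose in cisplatin-resistant cells from 7.41 and 9.65 CPM to 14.3 and 14.4 CPM (0.73, SE 0.20, limma adjusted p = 0.00201), a call lost without control library 1.

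The internal start of ACTA2, whose preceding bases are printed above, lay in a weak peak at chr10:88952446-88953446. It had 0.780 and 2.06 CPM (control), 2.25 and 2.10 (cisplatin-resistant), 8.26 and 6.07 (paclitaxel-resistant) and 5.81 and 5.91 (dual-resistant), from 22, 38, 122 and 102 reads per group. Paclitaxel-resistant and dual-resistant libraries stood above all control and cisplatin-resistant libraries. The rise in dual-resistant cells was 1.81 against control (SE 0.33, limma adjusted p = 1.33e-05) and 1.25 against cisplatin-resistant cells (SE 0.33, adjusted p = 0.00141), and both calls held under 17 alternatives. For cisplatin-resistant against control cells the difference was 0.56 (SE 0.33) and was not called, and for paclitaxel-resistant cells it was 2.07. The neighbouring peak chr10:88951338-88952338 had 2.60 and 3.22 CPM (control), 3.38 and 2.22 (cisplatin-resistant), 8.50 and 7.64 (paclitaxel-resistant) and 9.64 and 7.95 (dual-resistant). The dual-resistant line was higher there than control by 1.45 and than the cisplatin-resistant line by 1.51 (SE 0.28 each, limma adjusted p = 3.77e-05 and 4.9e-06). The summed level of the fibroblast marker peaks, given above, was also higher in dual-resistant and paclitaxel-resistant than in control libraries. It was higher in cisplatin-resistant than in dual-resistant libraries. Strong peaks, above all COL1A1, weigh most in this sum. Of the 6 peaks, 2 were called higher and 0 lower in dual-resistant against control cells, where 4.78% and 15.0% of all gene start peaks were. Against cisplatin-resistant cells 0 were higher and 1 lower, where 19.8% and 16.8% were, and the median difference was 0.11. The part of fibroblasts in the ACTA2 result was not tested.

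Between these sites, chr10:88974564-88975564 rose from 1.04 and 2.32 CPM in control to 5.74 and 3.39 in cisplatin-resistant and 3.46 and 3.87 in dual-resistant libraries. The differences were 1.24 (SE 0.34, limma adjusted p = 0.00196) and 0.998 (SE 0.34, adjusted p = 0.0317). The first was lost without control library 1 or cisplatin-resistant library 1, and the second under 8 of 17 alternatives, among them edgeR on recovered reads and the omission of control library 1 or of either dual-resistant library. ACTG2, the enteric smooth muscle actin, had only 1 peak, at chr2:73896875-73897875 within its span, with 1.35 to 3.46 CPM over the 8 libraries and no called difference. ACTC1 had no consensus peak within its extended span.

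TPM1 encodes a tropomyosin that lies along actin filaments and stabilises them. It rose in cisplatin-resistant cells at 10 of its 14 peaks, against 18.3% of all tested peaks, with a median difference of 1.29 over the 14. TPM1-AS overlaps it, and some of these peaks rest on few reads. The largest change was at chr15:63053830-63054830, within the gene. Levels were 0.130 and 1.16 CPM (control), 4.84 and 6.08 (cisplatin-resistant), 1.09 and 0.899 (paclitaxel-resistant) and 1.85 and 2.26 (dual-resistant), from 10, 95, 17 and 36 reads. Cisplatin-resistant libraries were highest and dual-resistant libraries next, both clear of the other groups. The log2 difference from control was 2.54 in cisplatin-resistant (SE 0.43, limma adjusted p = 1.1e-06) and 1.32 in dual-resistant cells (SE 0.43, adjusted p = 0.0278). The cisplatin-resistant call held under 17 alternatives, and the dual-resistant call was lost under 8 of 17, including edgeR and the omission of control library 1 or of either dual-resistant library.

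Other weak peaks within TPM1 differed likewise. At chr15:63052610-63053610 the levels were 1.17 and 0.515 CPM (control), 3.49 and 5.96 (cisplatin-resistant), 0.971 and 0.674 (paclitaxel-resistant) and 2.10 and 2.26 (dual-resistant) (1.96 for cisplatin-resistant against control, SE 0.43). At chr15:63068487-63069487, near the downstream end, they were 0.130 and 0.901 (control), 2.48 and 3.39 (cisplatin-resistant), 1.58 and 0.899 (paclitaxel-resistant) and 0.742 and 0.430 (dual-resistant). The rise of 1.86 (SE 0.48) there was lost without control library 1, and the lower level in dual- than in cisplatin-resistant cells (-1.66, SE 0.48, limma adjusted p = 0.00305) without cisplatin-resistant library 2. The other 7 called peaks rose by 0.80 to 1.72. The dual-resistant line was furthest below the cisplatin-resistant line at chr15:63051477-63052477, with 0.247 and 0.967 against 3.15 and 3.27 CPM (-1.83, SE 0.48, adjusted p = 0.00117), a call lost without dual-resistant library 1. At chr15:63057758-63058758 it was lower by -1.64 (SE 0.49, adjusted p = 0.00441), which was lost without cisplatin-resistant library 1. This peak, chr15:63051477-63052477 and chr15:63068487-63069487 would have failed the filter without the cisplatin-resistant libraries, where they were highest. They are also counted among the TPM1 peaks that rose in cisplatin-resistant cells, a count which the filter therefore favours.

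Not all TPM1 peaks that differed were weak. At chr15:63041901-63042901, over the 5′ end of the gene span, the mean over all libraries was 14.3 CPM. Levels there were 12.0 and 9.78 CPM (control), 20.1 and 18.2 (cisplatin-resistant), 16.8 and 12.7 (paclitaxel-resistant) and 12.2 and 12.9 (dual-resistant). The strongest TPM1 peak, over the listed start at chr15:63047684-63048684, differed less. It had 25.5 and 26.8 CPM (control), 27.7 and 38.4 (cisplatin-resistant), 26.2 and 22.5 (paclitaxel-resistant) and 21.1 and 23.2 (dual-resistant). The cisplatin-resistant libraries were the highest but differed widely from each other, and the difference of 0.31 (SE 0.14, limma adjusted p = 0.0722) was not called with the values as deposited. It was called under quantile scaling (0.46), median-ratio scaling (0.43) and edgeR (0.41), and without cisplatin-resistant library 1 (0.55). Dual-resistant cells were lower than cisplatin-resistant cells by -0.55 (SE 0.14, adjusted p = 0.000788), a call lost without cisplatin-resistant library 2. Against control they were called lower after regional subtraction (-0.39) and under no other alternative. Over all 14 TPM1 peaks, cisplatin-resistant libraries were the highest of the 8 at 11, against 20.7% of all tested peaks. Dual-resistant cells were lower than cisplatin-resistant cells at 7 of 14, against 19.9% of all tested peaks. The counts of 11 and 7 include the peaks that passed the filter only through the cisplatin-resistant libraries, which favours both counts. Dual-resistant cells were compared with control as well. They were higher than control at 1 of 14, against 8.11%.

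**Figure D4:**
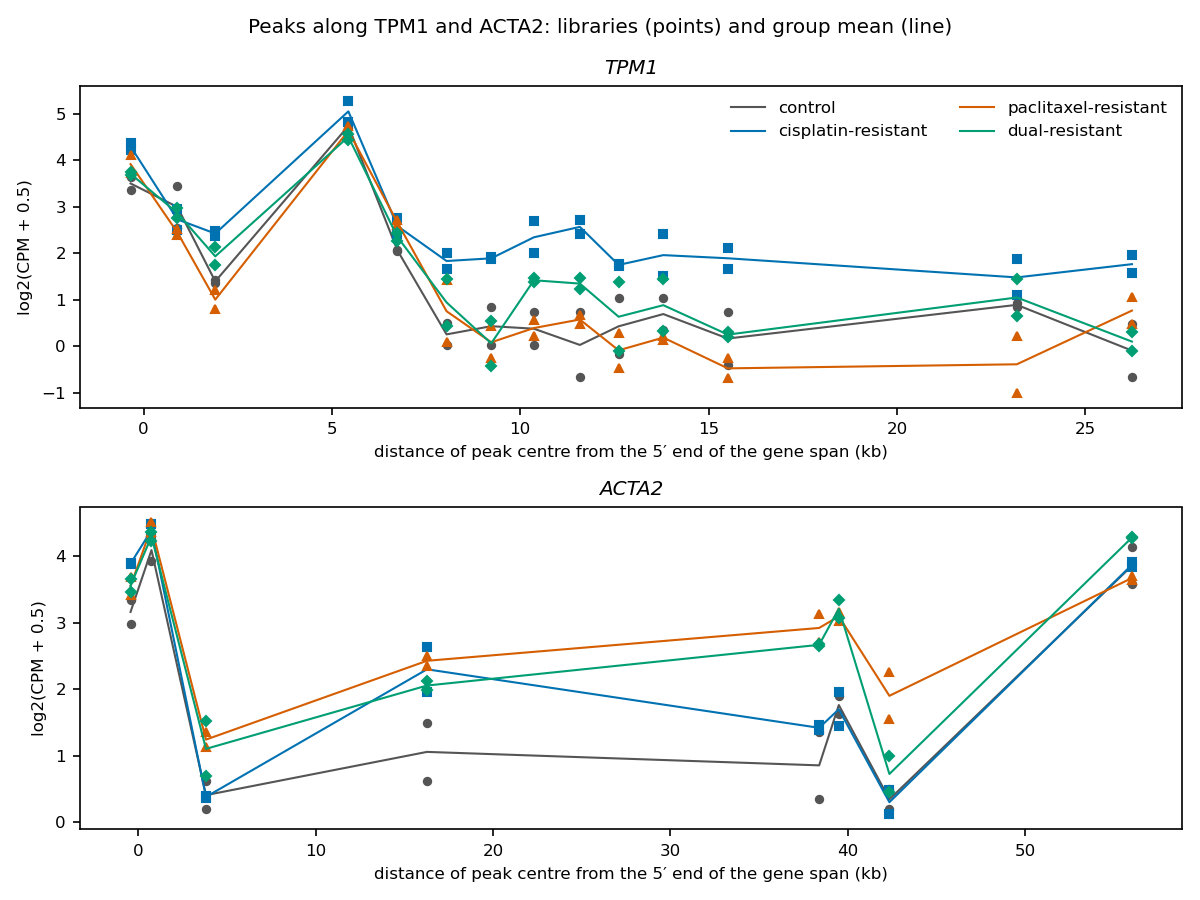
Level of each peak of TPM1 (top) and ACTA2 (bottom) as log2(CPM + 0.5) (y axis) by distance of the peak centre from the 5′ end of the gene span in kb (x axis), with points for libraries and lines for group means. Cisplatin-resistant cells lie above the others along the TPM1 gene body but not clearly at its strongest peak, and paclitaxel- and dual-resistant cells lie above the others around the internal start of ACTA2.

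TAGLN encodes transgelin (SM22), an actin-bundling protein of smooth muscle. It rose in dual-resistant cells at 2 of its 8 peaks against control, where 8.11% of all tested peaks did. Against cisplatin-resistant cells it rose at 4 of 8, where 21.9% did. Its representative peak, at chr11:117199107-117200107 over the start of this plus-strand gene (strand from background knowledge), had 9.62 and 11.5 CPM (control), 10.8 and 10.9 (cisplatin-resistant), 5.34 and 6.18 (paclitaxel-resistant) and 18.2 and 16.7 (dual-resistant). Dual-resistant libraries were above and paclitaxel-resistant libraries below all the others. The log2 difference was 0.70 (SE 0.20, limma adjusted p = 0.0089) against control and 0.66 (SE 0.20, adjusted p = 0.00538) against cisplatin-resistant cells, 0.04 (SE 0.20) for cisplatin-resistant against control cells, and -0.82 for paclitaxel-resistant against control cells. The first call was lost after regional subtraction and without control library 1 or dual-resistant library 1. The other was lost under median-ratio scaling, after regional subtraction, where the median of the region was 0.37, and without dual-resistant library 1.

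Dual-resistant libraries stood above the other 6 at 4 of 8 TAGLN peaks, against 15.6% of all tested peaks, and paclitaxel-resistant libraries below the other 6 at 3 of 8, against 11.5%. Beside the start peak, chr11:117200587-117201587 had 4.42 and 4.25 CPM (control), 5.18 and 4.68 (cisplatin-resistant), 5.10 and 4.83 (paclitaxel-resistant) and 8.66 and 8.28 (dual-resistant). Its gain was 0.89 against control (SE 0.27, limma adjusted p = 0.0124) and 0.73 against cisplatin-resistant cells (SE 0.27, adjusted p = 0.0209). Both were lost after regional subtraction and without either dual-resistant library, the first also without either control library and the other without cisplatin-resistant library 2. The downstream end of TAGLN overlaps PCSK7. There, chr11:117206079-117207079 was higher in dual-resistant (7.30 and 7.63 CPM) than in cisplatin-resistant libraries (3.83 and 5.14 CPM) by 0.69 (SE 0.28, adjusted p = 0.0423), a call lost under 6 alternatives, among them edgeR and the omission of cisplatin-resistant library 1 or of either dual-resistant library. Further on, chr11:117208283-117209283 had 1.24 and 0.468 CPM in cisplatin-resistant and 2.84 and 2.90 CPM in dual-resistant libraries, a difference of 1.38 (SE 0.44, adjusted p = 0.00803) lost after regional subtraction and without cisplatin-resistant library 2. The 8 TAGLN peaks held no call for cisplatin-resistant against control cells, where 18.3% of all tested peaks rose and 14.9% fell.

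CNN1 encodes calponin, which binds actin and dampens smooth muscle contraction. Its start peak at chr19:11538233-11539233 was weak, with 5.59 and 5.79 CPM (control), 5.74 and 5.85 (cisplatin-resistant), 7.16 and 5.73 (paclitaxel-resistant) and 5.32 and 4.30 (dual-resistant). The groups lay close together and no comparison was called. Over its 6 peaks 1 call was made, at chr19:11539800-11540800, where dual-resistant libraries (4.08 and 6.23 CPM) were above cisplatin-resistant libraries (2.48 and 3.16 CPM) by 0.75 (SE 0.30, limma adjusted p = 0.0326). It was lost under 5 alternatives, including edgeR, median-ratio scaling and the omission of cisplatin-resistant library 1 or dual-resistant library 2. Over all tested peaks 21.9% were called higher in this comparison.

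MYL9 encodes a regulatory light chain of non-muscle and smooth muscle myosin, whose phosphorylation drives contraction. It was the only member whose representative peak was called lower than control in the tested lines with the values as deposited. At chr20:36541571-36542571, over the start of this plus-strand gene (strand from background knowledge), levels were 26.4 and 25.7 CPM (control), 18.6 and 17.9 (cisplatin-resistant), 17.7 and 16.0 (paclitaxel-resistant) and 17.2 and 18.6 (dual-resistant). Control libraries stood above all 6 resistant libraries, which lay within 16.0 to 18.6 CPM. The difference from control was -0.50 in cisplatin-resistant (SE 0.15, limma adjusted p = 0.00617), -0.53 in dual-resistant (SE 0.15, adjusted p = 0.00908) and -0.62 in paclitaxel-resistant cells. The dual-resistant call was lost without either control library or dual-resistant library 1, whereas the cisplatin-resistant call held under 17 alternatives. Control libraries stood highest at 7.09% of all tested peaks.

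Within MYL9, which DLGAP4-AS1 overlaps, other peaks differed in both directions. At chr20:36549842-36550842 the levels were 3.77 and 3.09 CPM (control), 3.60 and 5.61 (cisplatin-resistant), 1.94 and 2.70 (paclitaxel-resistant) and 8.16 and 8.49 (dual-resistant). The dual-resistant line was higher than control by 1.17 (SE 0.30, limma adjusted p = 0.00293) and than the cisplatin-resistant line by 0.82 (SE 0.30, adjusted p = 0.0226). The first was lost without control library 2 or dual-resistant library 2, and the other under 6 alternatives, among them median-ratio scaling, regional subtraction, edgeR and the omission of cisplatin-resistant library 1 or of either dual-resistant library. At chr20:36548327-36549327 the dual-resistant libraries (4.33 and 6.34 CPM) were higher than control (1.04 and 2.83 CPM) by 1.34 (SE 0.40), a call lost without control library 1 or dual-resistant library 2. They were also higher than cisplatin-resistant libraries (0.900 and 3.39 CPM) by 1.30 (SE 0.40), which was lost without cisplatin-resistant library 1 or dual-resistant library 2. At chr20:36543958-36544958 the dual-resistant libraries (1.73 and 0.215 CPM, 16 reads) were lower than cisplatin-resistant libraries (7.43 and 3.51 CPM, 96 reads) by -2.16 (SE 0.45, adjusted p = 3.61e-05), and lower than control by -1.26 (SE 0.45, adjusted p = 0.0449). The last call was lost under 9 of 17 alternatives, including edgeR and the omission of either control library, either cisplatin-resistant library or dual-resistant library 2.

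Other genes of the SRF pathway were read at their start peaks, which 51 of 52 listed genes had. In cisplatin-resistant cells 8 rose and 9 fell against control, where 10.7% of gene start peaks rose and 28.8% fell, and the list's median of -0.16 was near the -0.20 of all start peaks. The count of 8 became 5 without control library 1 and 3 after regional subtraction. In dual-resistant cells 3 rose and 14 fell against control, where 4.78% rose and 15.0% fell, with medians of -0.18 and -0.14. The count of 14 became 6 without control library 1, 9 without control library 2, 6 without dual-resistant library 1, 6 with quantile scaling and 24 with edgeR. Between dual- and cisplatin-resistant cells 4 were higher and 11 lower in dual-resistant cells, where 19.8% were higher and 16.8% lower, with medians of -0.04 and 0.06, and the count of 4 became 2 without dual-resistant library 2. In that comparison median-ratio scaling and edgeR each gave 2 higher and 22 lower and regional subtraction 21 lower. Median-ratio scaling also gave 11 higher and 7 lower for cisplatin-resistant against control cells. Quantile scaling moved the medians of all peaks against control by about 0.1, to -0.19 in cisplatin-resistant and -0.02 in dual-resistant cells.

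The shares of all gene start peaks just given are also the background for the counts within the list. Among the regulators, 1 of 13 measured rose and 3 fell in cisplatin-resistant cells, against 10.7% and 28.8% of all gene start peaks. MRTFB, a coactivator of SRF, had the largest called difference of the list in cisplatin-resistant against control cells and in dual- against cisplatin-resistant cells, with 13.2 ± 0.0912 CPM in control, 2.58 ± 0.151 in cisplatin-resistant and 16.5 ± 1.86 in dual-resistant libraries (SD, n = 2). It was lower in cisplatin-resistant cells than in control by -2.15 (SE 0.20, limma adjusted p = 2.24e-16), and higher in dual- than in cisplatin-resistant cells by 2.46 (SE 0.20, adjusted p = 9.31e-20). Its level in paclitaxel-resistant libraries was 21.2 ± 0.907 CPM. The cisplatin-resistant line had the lowest level at the MRTFB start, and any link to the rises at TPM1 and ACTG1 was not tested.

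Of the 20 cytoskeletal and adhesion targets, 4 rose and 4 fell in cisplatin-resistant and 3 rose and 3 fell in dual-resistant cells against control. ACTN1, an actinin that cross-links actin filaments, had 21.9 ± 2.68 CPM (control), 53.1 ± 3.95 (cisplatin-resistant), 40.3 ± 0.385 (paclitaxel-resistant) and 33.9 ± 4.70 (dual-resistant). It rose by 1.26 (SE 0.12) and 0.61 (SE 0.12) in the tested lines, and the dual-resistant call was lost after regional subtraction. CALD1, whose product caldesmon regulates actomyosin, rose by 1.02 (SE 0.13) in cisplatin-resistant and 0.75 (SE 0.13) in dual-resistant cells. FLNA, which encodes the cross-linker filamin A, rose in dual-resistant cells from 13.4 ± 0.365 to 26.0 ± 0.700 CPM (0.93, SE 0.15). ACTN4, a related actinin, fell by 0.62 (SE 0.16) in cisplatin-resistant cells, which regional subtraction ended. It was higher in dual- than in cisplatin-resistant cells by 0.50 (SE 0.16, limma adjusted p = 0.00668), a call lost under 5 alternatives, among them edgeR and the omission of cisplatin-resistant library 1 or dual-resistant library 2.

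Of the 8 muscle targets 1 rose in cisplatin-resistant cells, SYNPO2, which encodes an actin-binding protein (7.24 ± 1.78 to 11.3 ± 2.58 CPM, 0.61, SE 0.23). That call was lost after regional subtraction and without control library 1 or cisplatin-resistant library 2. MYH11, the smooth muscle myosin heavy chain, was higher in dual- than in cisplatin-resistant cells (5.36 ± 1.34 against 2.52 ± 0.0941 CPM, 0.94, SE 0.30), which was lost without dual-resistant library 1. Of the 10 matricellular and immediate early targets, 4 fell and 0 rose in dual-resistant cells against control, where 15.0% and 4.78% of all gene start peaks did. CCN2, a matricellular protein, had 18.4 ± 1.13 CPM (control), 20.8 ± 1.86 (cisplatin-resistant), 8.85 ± 0.672 (paclitaxel-resistant) and 4.17 ± 0.645 (dual-resistant). It fell by 2.03 (SE 0.20, limma adjusted p = 3.55e-15) against control. It was lower than in cisplatin-resistant cells by -2.19 (SE 0.20), which became -0.47 after regional subtraction and was then not called. EGR2 and THBS1 fell by 0.90 (SE 0.12) and 0.84 (SE 0.22) against control, the latter not after regional subtraction or without control library 2 or dual-resistant library 2. MCL1, which encodes a survival protein, fell by 0.57 (SE 0.09) in cisplatin-resistant cells, which regional subtraction ended.

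The representative peaks whose pattern was most like that of ACTB were sought among the 5523 that ranged over at least 1 log2 unit. For ACTB this was the peak beyond its downstream end, not the peak over its start. The highest Pearson correlations over the 8 libraries, which share their depths and groups, were 0.984 for MBOAT1, 0.982 for MC1R, 0.975 for TTI2 and 0.970 for H4C1 and H3C1, which share a peak. MBOAT1 had group means of 32.9 CPM (control), 54.1 (cisplatin-resistant), 86.9 (paclitaxel-resistant) and 47.0 (dual-resistant), in the same order as the downstream-end peak of ACTB. At the ACTB start peak only the paclitaxel-resistant libraries stood apart. None of the 5 is a member of the actin or SRF pathway lists.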

How the data were processed

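ATAC-seq was done on 8 libraries in 4 groups of 2, grouped by treatment label. The authors deposited 1 matrix of CPM values for consensus peaks, per the file headers. Per the submitters' processing notes, Bowtie2, Picard and MACS2 were used with the build hg38. Their versions and settings, any Tn5 shift, the handling of reads that map to several places and the merging of peaks were not given by the sources used here. Dividing by the step of each library gave whole reads (within 0.01) for 100% of the values.

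Values were taken as log2(CPM + 0.5), which understates the change of weak peaks. The filter kept peaks that reached 1 CPM in 2 or more libraries. limma (version 3.58.1, R 4.3.3) with a variance trend was fitted to all groups (4 residual and 98.5 prior degrees of freedom), with Benjamini-Hochberg adjustment over all 158698 tested peaks. An SE is thus set largely by the variance trend and can be small where 2 libraries differ widely. edgeR (version 4.0.16) on recovered reads, other pseudocounts, no filter, quantile and median-ratio scaling, regional subtraction, a fit over 2 groups, a replicate block, no span extension and omission of each library were tried.

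Gene spans, starts and promoters came from RefSeq tables for GRCh38, the same build as hg38. Exons, introns and untranslated regions were not resolved. Named peaks were the representative peak and up to 3 called peaks of each gene with the largest difference, together with the 3 pathway genes per direction and comparison with the largest called difference, and the 5 genes most like ACTB. The 2 peaks nearest the start of ACTB, the peak over the 5′ end of the TPM1 span and the flanking peaks were named after their values were seen. The members and lists were chosen with earlier results of these data known.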

Additional observations from a re-analysis of the deposited data

How the results depend on the processing

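Some called differences named in the report kept direction and call under all 17 alternative fits. Among them were those at the downstream-end peaks of ACTB and ACTG1 against control, the internal start of ACTA2 and the start of MRTFB. Without the span extension these downstream-end peaks would not be members, which the 17 fits do not cover. Counts changed more. With a pseudocount of 0.25 or 2 CPM, or a fit over the 2 groups only, 1 member peak was lower in dual-resistant than in control cells instead of 2. With a pseudocount of 2 CPM the described count for paclitaxel-resistant cells became 4 higher and 0 lower, from 7 and 3, and with median-ratio scaling 12 were higher. Quantile scaling gave 2 lower member peaks in cisplatin-resistant cells instead of 1, and 6 lower pathway genes in dual-resistant cells instead of 14, for which edgeR gave 24. Regional subtraction gave 7 higher member peaks in dual-resistant cells instead of 11, and 3 higher instead of 9 against cisplatin-resistant cells, for which median-ratio scaling gave 4 and edgeR 5. For the pathway, regional subtraction gave 3 higher genes in cisplatin-resistant cells instead of 8 and 21 lower in dual- than in cisplatin-resistant cells instead of 11, where median-ratio scaling and edgeR each gave 22 lower and 2 higher, the latter instead of 4. The cause of these shifts was not tested.

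Leaving out 1 library gave 14 to 20 higher and 1 to 1 lower member peaks for cisplatin-resistant against control cells, 6 to 11 and 0 to 2 for dual-resistant against control cells, 4 to 10 and 9 to 14 for dual- against cisplatin-resistant cells, and 8 to 11 and 2 to 5 for the described paclitaxel-resistant comparison. For the pathway list it gave 5 to 8 higher and 6 to 10 lower, 3 to 3 and 6 to 15, and 2 to 6 and 8 to 11. Small differences that were not called changed sign, with the value after the change: ACTG1 start, dual-resistant against control, -0.0083 after regional subtraction. At the CNN1 start cisplatin-resistant against control became -0.10 under quantile scaling. At the SRF start it became 0.055 after regional subtraction, and quantile scaling gave 0.021 for dual-resistant against control and 0.044 against cisplatin-resistant cells. Over the omission of 1 library, the MYL9 start ranged from -0.082 to 0.028 (without dual-resistant library 1) for dual- against cisplatin-resistant cells, and the TAGLN start from -0.076 (without control library 1) to 0.16 for cisplatin-resistant against control. At the ACTB start peak, chr7:5530172-5531172, median-ratio scaling gave -0.0039 for dual-resistant against control, and over the omission of 1 library the range was -0.13 to 0.34 for cisplatin-resistant against control, -0.26 to 0.40 for dual-resistant against control and -0.36 to 0.30 between these lines. At chr7:5528991-5529991 the dual-resistant difference from control became 0.054 under quantile scaling and 0.0049 after regional subtraction and ranged from -0.31 to 0.27 over omissions, and that of cisplatin-resistant cells from -0.011 to 0.56. The TPM1 start, described for paclitaxel-resistant against control, became 0.065 under median-ratio scaling and 0.10 after regional subtraction, and ranged from -0.21 to 0.0059 (without paclitaxel-resistant library 2) over the omission of 1 library.

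Library numbers did not pair the samples: deviations of same-numbered libraries correlated at -0.00059 to 0.0033. With the replicate block the counts were 19 higher and 1 lower in cisplatin-resistant and 11 and 2 in dual-resistant against control cells, and 9 and 14 between them, as without it, and for the pathway list 7 and 9, 3 and 14, and 5 and 10 in the same order. It changed no call of a named peak. Over all peaks, the 12864 higher and 8561 lower calls for dual-resistant against control became 10722 and 10732 with median-ratio scaling, 8694 and 10638 after regional subtraction and 10118 and 11685 with edgeR. The 34800 higher and 31534 lower calls between dual- and cisplatin-resistant cells became 25001 and 37273, 21870 and 33625, and 24859 and 36120. The named weak peaks of TPM1, MYL9 and ACTA2 rest on as few as 4, 16 and 12 reads in a group, which limits their precision.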

Other observations

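The peaks beyond the downstream ends of ACTB and ACTG1, from 1 to 15 kb outside the span, differed between groups together with the downstream-end peaks of these genes. They were looked at after the values of the member peaks had been seen. All 9 such peaks downstream of ACTB rose in cisplatin-resistant cells (limma, median log2 difference 2.02), 7 of 9 rose in dual-resistant cells (median 1.32), and all 9 were lower in dual- than in cisplatin-resistant cells (median -0.73). Over all tested peaks 18.3%, 8.11% and 19.9% were called in these directions. At chr7:5522582-5523582 the levels were 10.1 and 9.40 CPM (control), 38.8 and 44.9 (cisplatin-resistant), 59.6 and 67.7 (paclitaxel-resistant) and 28.7 and 27.6 (dual-resistant). Of the 6 peaks upstream of ACTB, 0 were called in any of these comparisons. In paclitaxel-resistant cells 5 of the 9 downstream peaks were at least 2-fold above control with no overlap between libraries. These 5 were also the only ones with such a gain among the 83 peaks within 100 kb of ACTB that are not members, and 0 had such a loss. Over all tested peaks 5.76% had such a gain and 8.24% such a loss, so 5 of 83 is near the share of all peaks.

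Downstream of ACTG1, 6 of 8 peaks rose in cisplatin-resistant cells (median 1.26) and 5 of 8 in dual-resistant cells (median 1.07), against 2 and 0 of the 8 upstream peaks, and 3 of the 8 downstream peaks were lower in dual- than in cisplatin-resistant cells. In paclitaxel-resistant against control cells the medians were -0.16 downstream and -0.43 upstream, where 2 of 8 peaks were at least 2-fold lower with no overlap between libraries, and 1 of 8 downstream was higher by that measure. The shares of all tested peaks given for ACTB are the background for these counts too. At chr17:81506656-81507656 the levels were 5.85 and 5.02 CPM (control), 35.1 and 41.0 (cisplatin-resistant), 12.1 and 11.0 (paclitaxel-resistant) and 15.0 and 13.3 (dual-resistant). At ACTC1, which has no peak of its own, a peak upstream at chr15:34810311-34811311 had 1.56 and 0.644 CPM in control and 13.3 and 8.42 CPM in cisplatin-resistant libraries. Which genes these flanking peaks belong to was not tested.

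Each consensus peak carries the name of a peak from 1 library. All 4 ACTB peaks were named after a paclitaxel-resistant library, all 4 ACTG1 peaks and 13 of 14 TPM1 peaks after a cisplatin-resistant library, and 5 of 8 TAGLN peaks after a dual-resistant library. Among all peaks the shares were 23.0%, 34.3% and 39.5%, with 3.18% named after control. The part that this naming has in the levels was not tested.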
